A study of Drosophila melanogaster with 2 samples.

Results

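Of the 2290 peaks of p53-eGFP in Drosophila embryos that were selected by the irreproducible discovery rate (IDR), 235 lay in intergenic DNA (10.3%, 95% Wilson interval 9.08 to 11.6). A peak was counted as intergenic when its summit, the point of highest signal, was more than 500 bp from every protein-coding transcription start site (TSS) and inside no annotated gene of any biotype other than a transposable element. The rule used positions only, not peak strength. Of the other IDR peaks, 1394 were promoter peaks, within 500 bp of a protein-coding TSS, 565 were in introns and 96 in exons. The data come from chromatin immunoprecipitation sequencing (ChIP-seq) of whole embryos of mixed sex, 0 to 24 h old. The embryos carry an eGFP exon in an intron of the endogenous p53 gene, so that p53 is made as a fusion with green fluorescent protein. All embryos are of this one line, with no second genotype or treatment, and the 2 biological replicates (numbered 2 and 3) form 1 group. Whole embryos mix all cell types and ages, so a peak present in few cells and a weak peak in many cells cannot be told apart. One label gives p53 as the antibody target, while another says that the precipitation used an antibody against GFP.

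p53 is a transcription factor that acts in the response to DNA damage and in cell death. It binds DNA as a tetramer, with a dimer on each of a pair of adjoining half-sites. Intergenic DNA of the fly genome holds many enhancers, which act on promoters at a distance, as well as insulators, transposable elements and stretches of no known function. A gene that flanks an intergenic peak is its neighbour on the chromosome and was not shown to be its target.

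A full p53 site was taken as a pair of p53 consensus half-sites of 10 positions, with a spacer of 0 or 1 bp between them and at most 3 mismatches in the 20 positions. It was searched on both strands in a window reaching 100 bp to either side of each summit. The 8 intergenic peaks whose best site had at most 2 mismatches are shown because they hold the closest matches among the 235. Each is named by the gene of the nearest protein-coding TSS and by its rank in the IDR list by the authors' signal value. Coordinates are dm6, and the forward strand is written. Capitals mark the positions that match the consensus, and lower case marks mismatches and spacers.
Gga (rank 1271, X:9599422-9599441): GGGCAAGCTCAAACAcGCCC
Tom (rank 12, 3L:14968340-14968359): cAACAAGTTTcGACTTGTCC
rpr (rank 13, 3L:18403257-18403276): cGACTTGTTCAAACATGTCa
H15 (rank 137, 2L:5421962-5421981): AGACAAGTTgcAACTTGTCC
CG15282 (rank 444, 2L:14706484-14706503): GAGCATGTCaAAACTAtTTT
Hacd1 (rank 719, 2L:12003179-12003198): GAACgTGTCTGAAaAAGTCC
BobA (rank 1629, 3L:14953236-14953256): GGACATGTTCatAGCATGTTa
CG5953 (rank 1999, 2L:16535282-16535302): GAtCTTGTTTtAAAaATGTTT

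The Gga site, with a single mismatch, was the closest match, although the peak over it ranked 1271. The sites at Tom, rpr, H15, Gga, CG15282 and Hacd1 had no spacer. The windows at Tom, rpr, H15 and Gga are given next to show the DNA around the site, which is in capitals.
Tom (rank 12, 3L:14968234-14968434): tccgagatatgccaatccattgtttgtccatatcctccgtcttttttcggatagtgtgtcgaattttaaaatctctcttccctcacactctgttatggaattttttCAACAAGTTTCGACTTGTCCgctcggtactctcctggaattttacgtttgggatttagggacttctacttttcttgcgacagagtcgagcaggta
rpr (rank 13, 3L:18403182-18403382): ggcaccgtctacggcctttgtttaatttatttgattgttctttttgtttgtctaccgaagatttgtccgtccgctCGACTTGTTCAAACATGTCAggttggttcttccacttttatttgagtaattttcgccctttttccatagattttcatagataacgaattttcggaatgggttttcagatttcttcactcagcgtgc
H15 (rank 137, 2L:5421854-5422054): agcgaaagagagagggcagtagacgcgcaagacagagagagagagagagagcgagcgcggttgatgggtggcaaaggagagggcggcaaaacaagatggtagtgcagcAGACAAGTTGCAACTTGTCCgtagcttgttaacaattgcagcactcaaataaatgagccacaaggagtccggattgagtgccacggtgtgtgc
Gga (rank 1271, X:9599306-9599506): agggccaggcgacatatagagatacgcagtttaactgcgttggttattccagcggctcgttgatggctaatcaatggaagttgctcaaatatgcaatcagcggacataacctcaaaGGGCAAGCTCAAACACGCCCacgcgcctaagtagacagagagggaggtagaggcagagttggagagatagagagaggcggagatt

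The site was centred 16 bp to the right of the summit at Tom, 18 bp at H15 and 26 bp at Gga, and at -15 bp, to the left, at rpr. Among the 8 peaks, 6 sites were centred within 30 bp of the summit, and the median distance was 17.8 bp. The sites at Hacd1 (51 bp) and CG15282 (89 bp) were farther away. The word most often found at intergenic summits was GAGAG (or its reverse complement CTCTC), the core bound by GAGA factor, a protein that opens chromatin. It was also the shortest of the 9 words searched, and a shorter word is met more often by its length alone. Of the 6 strongest intergenic peaks, all but rpr had the word in the window. The peaks next in strength, at CG14762, CycB, eEF1gamma and sp3, lacked it. With the intergenic peaks cut into groups of 47 from strongest to weakest, 17, 11, 12, 15 and 12 had the word. The windows at rdgB, Rh5 and tara are shown with the word in capitals.
rdgB (rank 9, X:13761854-13762054): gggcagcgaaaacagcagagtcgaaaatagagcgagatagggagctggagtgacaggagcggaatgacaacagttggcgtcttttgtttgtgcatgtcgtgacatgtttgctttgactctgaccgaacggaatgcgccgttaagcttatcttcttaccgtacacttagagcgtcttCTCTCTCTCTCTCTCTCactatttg
Rh5 (rank 3, 2L:12007259-12007459): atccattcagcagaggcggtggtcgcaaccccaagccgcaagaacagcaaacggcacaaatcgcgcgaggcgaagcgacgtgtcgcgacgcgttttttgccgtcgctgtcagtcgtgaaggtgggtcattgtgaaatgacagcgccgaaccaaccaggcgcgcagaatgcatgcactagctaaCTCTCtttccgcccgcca
tara (rank 31, 3R:16222396-16222596): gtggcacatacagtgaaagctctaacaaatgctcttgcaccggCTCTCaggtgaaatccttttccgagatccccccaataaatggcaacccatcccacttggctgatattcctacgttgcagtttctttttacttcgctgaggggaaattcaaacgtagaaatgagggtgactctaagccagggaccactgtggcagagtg

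The rdgB window held 7 overlapping copies of the word as well as a p53 site with 3 mismatches, while the Rh5 and tara windows held 1 copy each and no full p53 site.

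Intergenic peaks were about as strong as promoter and intronic IDR peaks. The authors' signal value, a measure of peak strength (how it was scaled is not stated in the labels or file headers), had a median of 105.6 in the 235 intergenic peaks (quartiles 88.5 and 158). It was 109 in all 2290 IDR peaks (88.4 and 149), 110.1 in promoter peaks and 107 in intronic peaks. Intergenic signal values ran from 75.8 to 1044. The intergenic share showed no steady trend with strength. With the IDR list cut into 5 parts of 458 peaks from strongest to weakest, the shares were 12.2%, 7.42%, 9.83%, 12.01% and 9.83%, and the Wilson intervals of all 5 share the range from 9.54% to 10.2%. Intergenic peaks made up 5 of the 25 strongest IDR peaks, 14 of the 100 strongest and 60 of the 500 strongest (12%, interval 9.44 to 15.1). Most intergenic peaks had the same width, 396 bp, at 203 of 235 (86.4%, interval 81.4 to 90.2), as did 2041 of all IDR peaks (89.1%). The narrower ones were strong: the median width was 249 bp in the strongest 47 intergenic peaks and 396 bp in each of the other 4 groups of 47.

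Intergenic regions were less common in the IDR list than among the candidate regions it was drawn from. The pooled list of 26752 regions, which holds background regions by design, had 4462 intergenic ones, and 235 of them (5.27%, interval 4.65 to 5.96) were in the IDR list, beside 8.56% of all pooled regions. The share in the IDR list was 17.9% (interval 17.1 to 18.8) for promoter regions, 6.32% (interval 5.83 to 6.84) for intronic regions and 1.72% (interval 1.41 to 2.10) for exonic regions. The 4227 intergenic pooled regions outside the IDR list serve below as the main reference. They are weaker by construction, with signal values of at most 75.7, and only 251 of them (5.94%) lay over a replicate 3 region with a deposited q of 0.01 or less. A comparison with them thus sets called peaks mostly against regions not called at that q.

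The strongest intergenic peak lay between Rh5, which encodes a rhodopsin, and Hacd1, a dehydratase gene of fatty acid elongation, with the start of a gene at each end of the gap. Its summit was 794 bp from Rh5 and 5093 bp from Hacd1, and it ranked 3 in the IDR list (2L:12007119-12007603, signal value 1044). In the replicates' own lists it had signal values of 395 in replicate 2 and 646 in replicate 3. The next peak, at X:13761785-13762160, lay 798 bp upstream of rdgB, a phosphatidylinositol transfer protein gene of phototransduction, and 407 bp past the end of Yp3, a yolk protein gene. Its signal value was 747 in the IDR list, 254 in replicate 2 and 494 in replicate 3. Both peaks were thus near the top of each replicate's list, at ranks 5 and 19 of replicate 2 and ranks 2 and 7 of replicate 3.

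The Tom peak (3L:14968170-14968527, signal value 691) lay 1010 bp upstream of Tom, a Bearded family gene whose product restrains Notch ligand activity. Its signal value was 277 in replicate 2 and 418 in replicate 3, and it ranked 15 in both lists. The rpr peak (3L:18403116-18403533, signal value 686) lay 4847 bp upstream of rpr, an activator of cell death, with lncRNA:CR46215 on its other side at 25242 bp. It had signal values of 240.3 in replicate 2 (rank 26) and 459 in replicate 3 (rank 9). Tom and rpr were the only intergenic peaks in the strongest 100 IDR peaks whose site had at most 2 mismatches. The fifth, with a signal value of 668, lay in a gap between Su(z)2, a Polycomb group gene, at 27431 bp, and CG13323 at 9353 bp. It ranked 11 in replicate 2 (signal value 293) and 19 in replicate 3 (376).

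A pair of peaks lay upstream of tara, which encodes a transcriptional coregulator of the trithorax group. The stronger (3R:16222353-16222615, signal value 544) was 3155 bp from the tara TSS, between the non-coding genes lncRNA:CR45641 and lncRNA:CR45643, with signal values of 277 in replicate 2 and 273 in replicate 3. The weaker (3R:16224432-16224612, signal value 262) was 1121 bp from it, between lncRNA:CR45643 and tara, with 135 in replicate 2 and 130.5 in replicate 3. Both ranked higher in replicate 2 (14 and 102) than in replicate 3 (47 and 220). The peak 649 bp upstream of CG14762, with the microRNA gene mir-4981 on its other side, had a signal value of 439. The CycB peak (signal value 432) lay between the ends of the genes of cyclin B, 571 bp away, and of the ATP synthase subunit blw, 770 bp away, and 3353 bp from the nearest TSS. It ranked 46 in replicate 2 and 61 in replicate 3.

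The other peaks of the strongest 20 had signal values from 259 to 375. The peak nearest to the TSS of eEF1gamma, a translation elongation factor gene (375), had Cyt-c1L on the other side and lay 101 bp from the start of lncRNA:CR31044. The sp3 peak (351) was 545 bp upstream of sp3, with the homeobox gene C15 at 7569 bp on the other side. The peak nearest to CheA75a, a gene of a chemosensory protein family (342), was 15994 bp from its TSS, between lncRNA:CR45937 and lncRNA:CR45936. RasGAP1, a Ras GTPase-activating protein gene, was 662 bp from a peak of 340.3, with CG10809 on the other side. CG3149 (338), next to lncRNA:CR42794, and CG4702 (329), next to the immunoglobulin domain gene dpr17, had peaks at 1319 bp and 6854 bp. The peak 1618 bp from the TSS of the cuticle protein gene Cpr76Ba (309) had lncRNA:CR45731 on its other side. The peak 786 bp upstream of jp, the junctophilin gene (298), lay 619 bp from lncRNA:CR44149. The H15 peak (281), whose site is shown above, was 5361 bp past the end of this T-box gene, with lncRNA:CR43713 beyond it. The peak 2012 bp upstream of hid, an activator of cell death, had a signal value of 277, and lncRNA:CR45234 lay on its other side. The last, at 259, was 21067 bp from the TSS of CG6163, between lncRNA:CR45250 and lncRNA:CR45251.

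**Figure D1:**
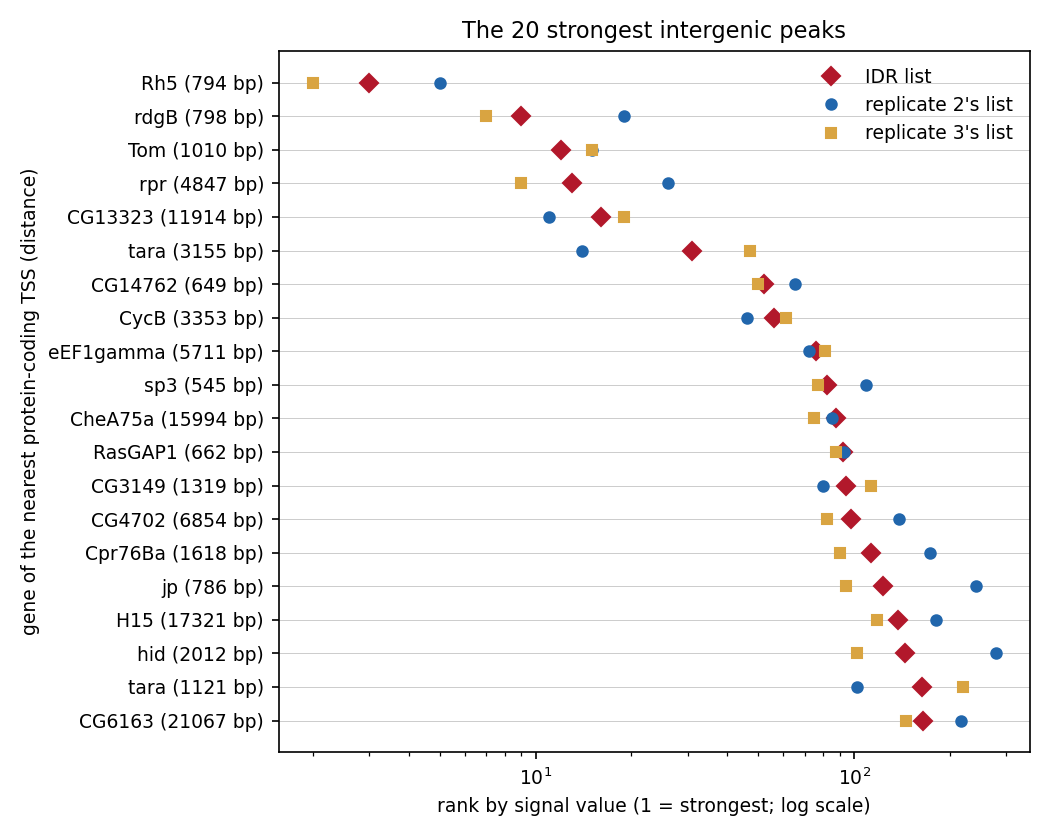
Rank by signal value (log axis, 1 is the strongest) of the 20 strongest intergenic peaks, named by the gene of the nearest protein-coding TSS with its distance in bp. Diamonds show the IDR list, circles replicate 2 and squares replicate 3, and the circle and square of Tom coincide at rank 15. Every one of the 20 is within the first 278 regions of replicate 2 and the first 220 of replicate 3.

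Most intergenic peaks lay within a few kb of a coding gene's start. The distance from the summit to the nearest protein-coding TSS had a median of 3353 bp in intergenic IDR peaks (quartiles 1306 and 7707), against 4751 bp in intergenic pooled regions outside the IDR list (2085 and 10303). By band, 46 peaks (19.6%) were over 0.5 and up to 1 kb from a TSS, against 9.27% of the regions outside the IDR list. The band from 1 to 2 kb held 42 (17.9%, against 14.6%), and that from 2 to 5 kb held 62 (26.4%, against 27.9%). Farther out, 38 peaks (16.2%, against 22.2%) were at 5 to 10 kb, 38 (16.2%, against 17.6%) at 10 to 20 kb and 9 (3.83%, against 8.33%) beyond 20 kb. Of pooled intergenic regions, 10.5% were in the IDR list in the nearest band and 2.49% in the farthest. Strength did not order the bands. Their median signal values, nearest first, were 112, 111, 105.5, 95.8, 117 and 92.4, and Spearman's rho of signal value and distance was -0.08 across the 235 peaks, which share their libraries. The 20 peaks with a full p53 site fell 5, 5, 5, 4, 1 and 0 into these bands.

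**Figure D2:**
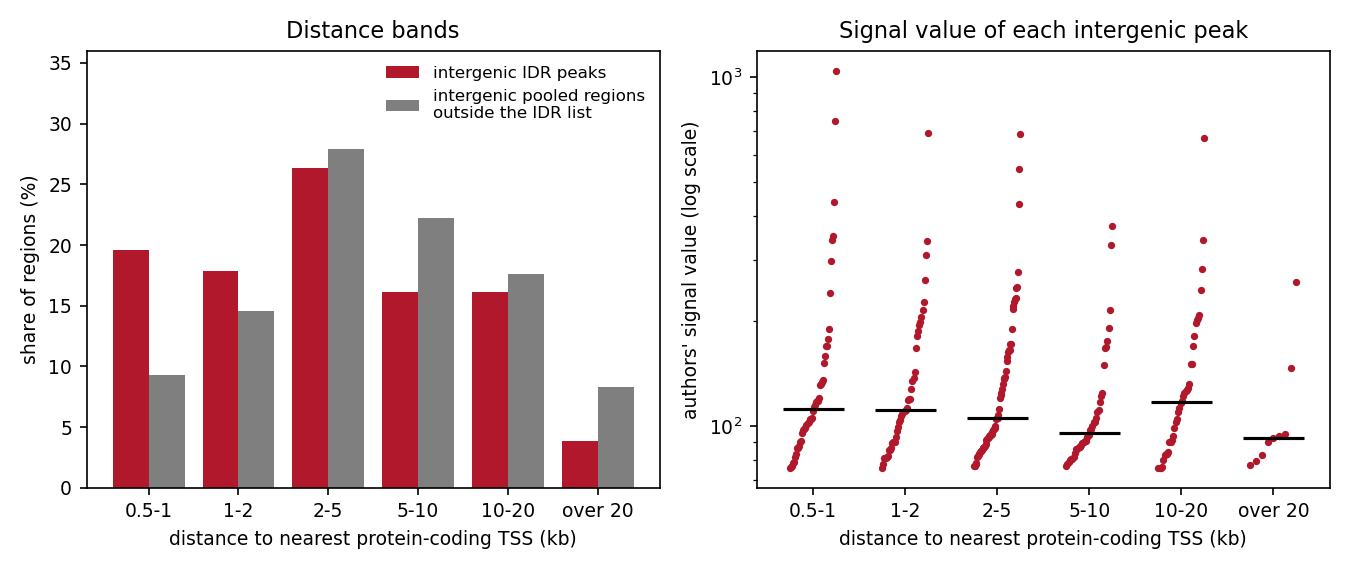
Left, share (%) of intergenic IDR peaks and of intergenic pooled regions outside the IDR list in each band of distance (kb) to the nearest protein-coding TSS. Right, the authors' signal value (log axis) of every intergenic IDR peak by band, with a line at the median; the bands overlap throughout, and the strongest peak (1044) is in the nearest band.

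The 5 peaks farthest from a protein-coding TSS were of moderate to low strength. A pair lay near corto, a chromatin protein gene, and plh. The first (3R:5053622-5054017, signal value 94.96) was 32892 bp from a TSS but only 82 bp from lncRNA:CR45588. The second (3R:5043181-5043576, 82.8) was 32348 bp from a TSS, between lncRNA:CR46352 and lncRNA:CR43635. The third (3L:10739806-10740201, 147) lay 31921 bp upstream of CG43245 and 43127 bp from NijA, a ninjurin gene, in the longest gap that holds an intergenic IDR peak (75047 bp). A peak between lncRNA:CR44685 and the gap gene kni (89.7) was 26956 bp from a TSS, and one beyond vvl, a POU domain factor gene, next to lncRNA:CR45115 (93.7) was 26301 bp from one. At the other end, the members nearest to the 500 bp limit were at CrebA (503 bp, signal value 83.2), nrv1 (504 bp, 76.4) and CG10479 (510 bp, 159). Peaks just inside that distance, at dac (497 bp, 76.4), tej (494 bp, 89.8) and CG6602 (494 bp, 94.7), were counted as promoter peaks.

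Intergenic peaks lay on both sides of genes. Upstream of the nearest coding TSS lay 147 of 235 (62.6%), against 62.1% of intergenic pooled regions outside the IDR list. Gaps between the starts of both neighbours held 67 peaks (28.5%), gaps between both ends held 48 (20.4%) and gaps between a start and an end held 120 (51.1%). Of the 4147 gaps over 1 kb between gene bodies, 27.2% were of the first kind, 19.2% of the second and 53.6% of the third, and by length these kinds made up 23.04%, 24.5% and 52.5%. Both neighbours were protein-coding at 110 peaks, 1 was non-coding at 90 and both were non-coding at 35. At 58 peaks the nearest coding TSS belonged to neither neighbour. The 204 gaps that hold a peak had a median length of 6964 bp, and some of them were under 1 kb (shortest 118 bp). The median was 3988 bp for all gaps over 1 kb. Of the gaps over 20 kb, 37 of 387 held a peak (9.56%), and of those over 1 kb, 189 (4.56%). A longer gap has more room for a peak, and these values make no allowance for that.

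Of the 7 gene groups looked at, all but the heat shock genes had a member beside an intergenic peak. Of 13945 protein-coding genes, 270 (1.94%) flanked a gap with one. Of 10 genes known to be induced by radiation through p53, 2 did, namely rpr and hid, and these were also the only 2 of 20 cell death genes. The hid gene had a further peak at 8350 bp from its start (3L:18193793-18194188), with a signal value of 175. The coding TSS nearest to this peak was that of CG7320, at 7503 bp. The further peak ranked 218 in replicate 2 and 730 in replicate 3, whereas the nearer hid peak ranked 278 and 102. Among Bearded and Enhancer of split genes, which modulate Notch signalling, 4 of 16 flanked a gap with a peak. E(spl)malpha-BFM had a peak 1725 bp away with a signal value of 135 and a p53 site with 3 mismatches. E(spl)m4-BFM and the bHLH repressor gene E(spl)m5-HLH shared a peak of 94.3. Tom flanked 3 peaks, with signal values of 691, 248 and 90.8.

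Of 56 patterning and Hox genes, 8 flanked a gap with a peak, and all of them were segmentation or head genes. The pair-rule genes slp1 and slp2, which encode forkhead factors, shared the strongest of these peaks (2L:3832434-3832618, signal value 227), at rank 164 of replicate 2 and 315 of replicate 3. The Wnt ligand gene wg had one at 25529 bp (122), the Otx gene oc at 6057 bp (109.7) and the homeobox gene ems at 10353 bp (104). The wg peak was nearer to Wnt4, at 4459 bp from the Wnt4 TSS. The gap gene kni (89.7), the engrailed paralog inv (86.7) and the pair-rule gene odd (84.2) had weaker ones. The coding TSS nearest to the kni peak was that of CG13251, at 26956 bp. No peak of this group held a full p53 site. The replicates ranked these weak peaks far apart: inv was at 5346 in replicate 2 and 1217 in replicate 3, and odd was at 1340 and 3504. Neuronal and glial genes had 2 of 23 (ple, the tyrosine hydroxylase gene, and nrv2, a subunit gene of the sodium pump). The nearest coding TSS was that of CG8519 for the ple peak and of nrv1 for the nrv2 peaks. Cell cycle genes had 3 of 18 (CycB, Cdk4 and the cyclin-dependent kinase inhibitor gene rux), and heat shock genes 0 of 16. Genes in longer gaps have more room for a peak, and these counts make no allowance for that.

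Some intergenic peaks shared a gap. The 235 peaks lay in 204 gaps, of which 177 held 1 peak. The other 27 held more than 1 peak and together held 58. Among the 235, 6 peaks had an interval that overlaps that of another intergenic peak. How often other regions share a gap was not counted. There were 4 gaps with 3 peaks. In the Hacd1 to Rh5 gap (5886 bp) they had signal values of 1044, 134 and 132. The last has the same deposited interval as the strongest, with a summit of its own 595 bp from Rh5, so the 235 peaks are 234 distinct intervals. The peak of 134 lay 872 bp upstream of Hacd1 and held a p53 site with 2 mismatches, and it ranked 1168 in replicate 2 and 575 in replicate 3. In the gap of 18640 bp before Tom, all 3 peaks held a full p53 site, with 2, 3 and 2 mismatches from the strongest to the weakest. The weakest of them lay 16080 bp from Tom, nearer to the TSS of BobA, another gene of the Bearded family. The gap between COX7AL2 and CG31668 (5808 bp) held peaks of 232, 94.3 and 85.2. That between lncRNA:CR44603 and lncRNA:CR45695 (20910 bp), upstream of chinmo, a BTB zinc finger gene, held peaks of 150.4, 124 and 122. None of the peaks in these last 2 gaps held a full p53 site.

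Peaks also ran along the chromosome across gaps. With a step of at most 25 kb between summits, a distance set after the data were seen, 79 peaks formed 29 chains and 156 stood alone. Chains were not counted for other regions, so these numbers do not show clustering. The median distance from an intergenic summit to the nearest other IDR summit of any class was 15538 bp. Of the chains, 7 had 4 or more peaks. The longest had 6 peaks over 35.5 kb of arm 3L (summits from 11318966 to 11354423), running across CG6168 towards CG6163 and among non-coding genes. Its signal values ran from 76.0 to 259, no other IDR summit lay within it, and 5 of the 6 peaks were among the 2290 strongest regions of both replicates. A chain of 5 on 2L spanned 22.8 kb from aop, an ETS repressor gene, to CG31668 and had 2 such peaks. Within its span lay 1 intronic and 1 exonic IDR peak. The chinmo chain had 4 peaks over 15.9 kb with signal values from 122 to 249.5, and all 4 were among the strongest of both replicates.

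Some intergenic peaks lay at starts of non-coding genes. Within 500 bp of a non-coding TSS were 20 of 235 (8.51%, interval 5.58 to 12.8), against 4.19% of intergenic pooled regions outside the IDR list. The gene was a long non-coding or antisense RNA at 14 of them, a tRNA at 3, a snoRNA at 2 and an snRNA at 1. They include the peak 160 bp from the start of lncRNA:flam, the flamenco piRNA cluster that silences transposons (signal value 89.5). Others lay 76 bp from the snoRNA host gene Uhg4 (190.1), 80 bp from snRNA:U6:96Ac (90.6) and 69 bp from tRNA:Ala-AGC-2-6 (151). In 3 peaks (1.28%, interval 0.435 to 3.69) the summit was in a transposable element. The share was 1.61% in intergenic pooled regions outside the IDR list and 0.218% in all IDR peaks. The elements at the 3 peaks were Circe (signal value 105.5), Cr1a (100.02) and INE-1 (87.8).

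The replicates placed most intergenic peaks alike. Each replicate's list holds 30000 regions, and a peak was matched to the region that overlaps it by at least 1 bp and has the nearest summit. The 2290 strongest regions of replicate 2 took in 190 of 235 intergenic peaks (80.9%, interval 75.3 to 85.4), beside 81.5% of all IDR peaks. For replicate 3 there were 207 (88.1%, interval 83.3 to 91.6), beside 86.6%. Both held for 163 peaks (69.4%), replicate 2 alone for 27, replicate 3 alone for 44 and neither for 1. A region with a q of 0.01 or less lay under 169 peaks (71.9%, interval 65.9 to 77.3) in replicate 2, beside 72.9% of all IDR peaks, and under 233 (99.1%, interval 96.95 to 99.8) in replicate 3, beside 99%. Each of these 4 values for all IDR peaks is within the interval of the intergenic share. The IDR list was chosen on the pooled replicates, so these overlaps are not independent evidence of the peaks. A single control library, not analysed here, stood behind both replicates' lists.

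For 233 intergenic peaks a region was matched in each replicate. Spearman's rho between the replicates was 0.589 for their signal values, against 0.556 in 2282 IDR peaks of all classes. The peaks share their libraries, and no p is given. Of these, 112 ranked higher in replicate 2 and 120 in replicate 3. Summits lay a median of 11 bp from that of the matched region in replicate 2 and 6 bp in replicate 3. By strength, the strongest 47 intergenic peaks were all among the 2290 strongest regions of both replicates, a count that says nothing of their order. Of the weakest 47 only 22 were in replicate 2 and 33 in replicate 3.

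**Figure D3:**
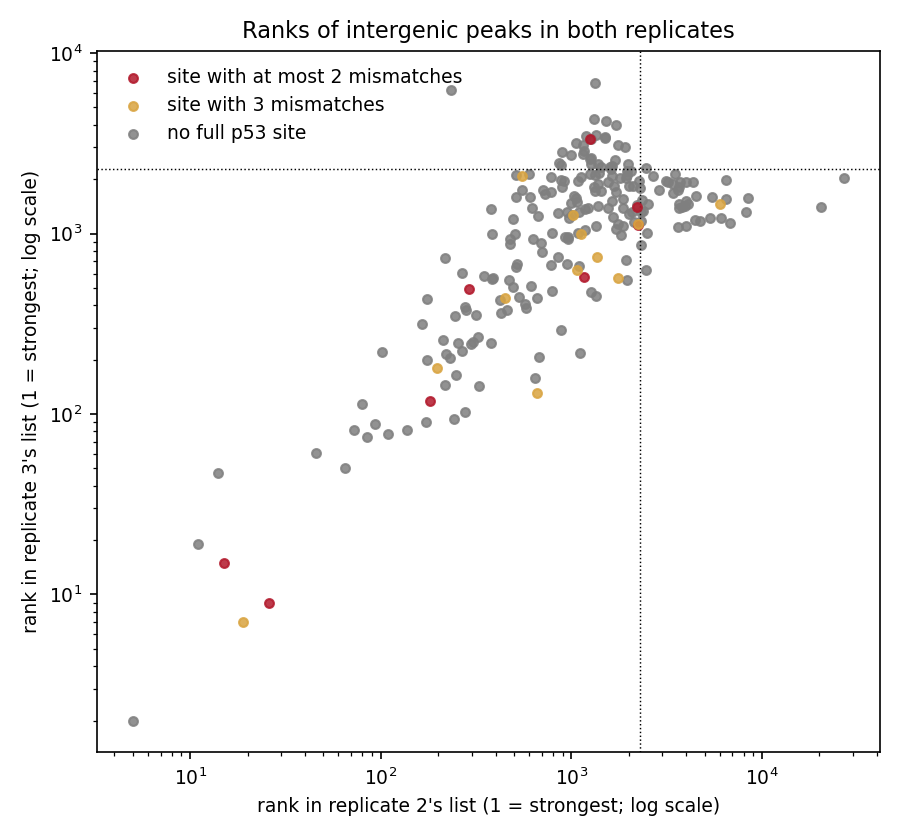
Rank of each of 233 intergenic peaks by signal value in replicate 2 (horizontal) and replicate 3 (vertical), both on log axes with 1 the strongest. Dotted lines mark rank 2290, and colours give the best full p53 site within 100 bp of the summit. Every peak within the first 100 of either list is within the first 242 of the other, and peaks such as nrv1 (234 in replicate 2, 6272 in replicate 3) lie far from the diagonal.

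The replicates disagreed on some peaks, named here after their values were seen. The zfh2 peak on chromosome 4, 3874 bp upstream of this homeodomain and zinc finger gene and 8942 bp from Asator, had a signal value of 234. It ranked 662 in replicate 2 (signal value 57.7) and 131 in replicate 3 (171). A peak 25674 bp from a corto TSS ranked 20518 in replicate 2 and 1407 in replicate 3, and one 1867 bp upstream of the forkhead gene FoxL1 ranked 26993 and 2028. Past rank 5000 were 11 intergenic peaks (4.72%) in replicate 2, against 5.78% of all IDR peaks, and 2 (0.851%) in replicate 3, against 1.35%. Others ranked higher in replicate 2. The nrv1 peak at the 500 bp limit ranked 234 in replicate 2 (signal value 92.3) and 6272 in replicate 3 (28.1), and a peak 11105 bp from the TSS of CG33648 ranked 1333 and 6859. The replicate 2 region at rank 1333 was also the match of a neighbouring intergenic peak, 11342 bp from that TSS. The rank in replicate 2 is thus not particular to either peak. The peaks near Cyp6w1 (99.9) and DIP-delta (75.9) overlapped no region of replicate 2 and ranked 479 and 1185 in replicate 3. The Cyp6w1 summit lay 27 bp from a tRNA gene.

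Close matches to the p53 site were found at 8 of 235 intergenic summits, a share whose interval overlaps those of intronic, exonic and all IDR peaks. A site with at most 2 mismatches stood in 3.40% of intergenic windows (interval 1.73 to 6.57). It stood in 1 of 470 windows of the same length 1 kb to either side (0.213%, interval 0.0376 to 1.20), and in 32 of 4227 intergenic pooled regions outside the IDR list (0.757%, interval 0.537 to 1.07). It was also found in 0.646% of promoter peaks (interval 0.340 to 1.22), 1.77% of intronic peaks (interval 0.964 to 3.23), 4.17% of the 96 exonic peaks (interval 1.63 to 10.2) and 1.35% of all IDR peaks (interval 0.955 to 1.92). Allowing 3 mismatches gave 20 intergenic peaks (8.51%, interval 5.58 to 12.8), beside 7.21% of all IDR peaks, 4.47% of the flanking windows (interval 2.94 to 6.73) and 6.74% of the intergenic regions outside the list. An unbroken half-site was in 14 (5.96%, interval 3.58 to 9.75), beside 4.54% of all IDR peaks and 3.83% of the flanking windows. The flanking windows were placed by distance alone, so some can lie in genes, at promoters or near another IDR summit. At 3 mismatches and for the half-site, the intergenic intervals contain the values of all IDR peaks. In the strongest 47 intergenic peaks 6 had a full site, and in the weakest 47 there were 2. At 215 of the 235 peaks no full p53 site was in the window.

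The 8 peaks with close sites spanned the strength range. Tom and rpr ranked 12 and 13 in the IDR list, H15 137, CG15282 444 and Hacd1 719. The Gga peak lay 1624 bp upstream of Gga, which encodes a clathrin adaptor, and its signal value was 103, with rank 2241 in replicate 2 and rank 1111 in replicate 3. The BobA peak (90.8) ranked 2218 and 1406, and the CG5953 peak (81.3) ranked 1259 and 3349. The CG5953 summit lay 71 bp from lncRNA:CR45355.

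TATCGATA and GGTCACAC were rarer at intergenic summits than in promoter peaks. The shorter words GAGAG and TATAAA were common in both. TATCGATA, bound by the promoter factor DREF, was in 3 intergenic windows (1.28%, interval 0.435 to 3.69), against 10.04% of promoter peaks (interval 8.57 to 11.7). GGTCACAC, bound by the promoter factor M1BP, was in 1 (0.426%, interval 0.0752 to 2.37), against 7.39% (interval 6.13 to 8.88). Both words were also rare in intergenic regions outside the IDR list, at 0.615% and 0.426%. GAGAG was in 67 intergenic windows (28.5%, interval 23.1 to 34.6), against 19.1% of the flanking windows (interval 15.8 to 22.95), 23.1% of the intergenic regions outside the list, 22.9% of promoter peaks and 30.3% of intronic peaks. TATAAA, the TATA box, was in 61 (26.0%, interval 20.8 to 31.9), against 22.6% of the flanks and 18.3% of the regions outside the list. The TATAAA shares of promoter peaks (23.3%) and of all IDR peaks (23.2%) are within that interval. TTTATG, bound by Caudal, was in 47 (20%), against 18.9% of the flanks and 23.9% of the regions outside the list. The E-box CACGTG was in 9 (3.83%, against 2.77% of the flanks), CAGGTAG, bound by Zelda, in 4 (1.70%, against 1.06%), and TGACTCA, bound by Jun and Fos, in 3 (1.28%, against 2.13%). TGACGTCA was in 0 of 235, which allows a share of up to 1.28% by a floor of 3 counts, or 1.61% by the Wilson limit. In 71 windows (30.2%) none of the 9 words and no p53 site or half-site was found. A word is a match of letters, and its factor was not measured.

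**Figure D4:**
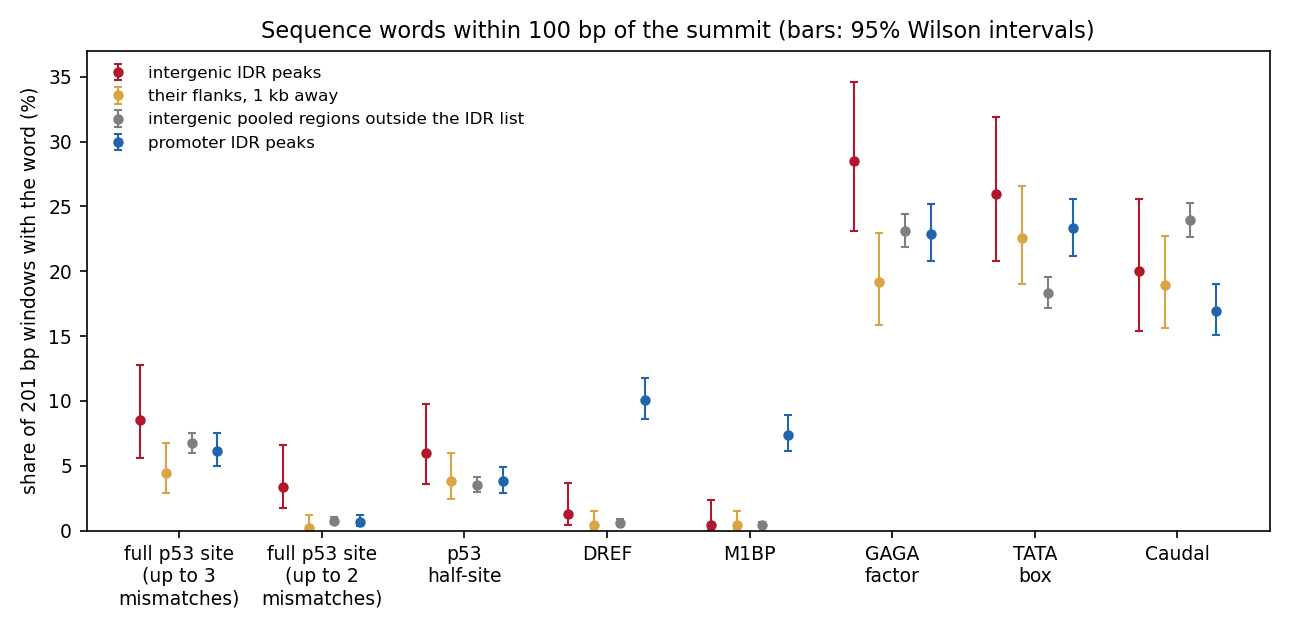
Share (%) of windows reaching 100 bp to either side that hold each sequence word, in intergenic IDR peaks, in windows 1 kb to either side of them, in intergenic pooled regions outside the IDR list and in promoter IDR peaks. Points are shares and bars are 95% Wilson intervals; for p53 sites with up to 2 mismatches the intergenic point is 3.40% and the flank point 0.213%, and for DREF the promoter point is 10.04%.

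Base composition was similar at intergenic and promoter summits, while intergenic regions outside the IDR list were richer in GC. The median GC content of the windows was 39.8% at intergenic summits, 41.8% in their flanks, 40.8% in promoter peaks and 43.8% in intergenic regions outside the IDR list. Its part in the shares of words was not tested. By chromosome arm, 60 intergenic peaks lay on 2L, 37 on 2R, 61 on 3L, 46 on 3R, 5 on chromosome 4 and 26 on the X. The X held 11.1% (interval 7.66 to 15.7) of intergenic IDR peaks, against 18.6% of all IDR peaks (interval 17.1 to 20.3) and 25.1% of intronic ones (interval 21.7 to 28.9). It held 10.2% of intergenic regions outside the IDR list and 14.8% of the total length of gaps between genes. Arm 2L held 25.5% (interval 20.4 to 31.5), against 19.04% of all IDR peaks (interval 17.5 to 20.7), 22.1% of intergenic regions outside the list and 18.95% of the gap length. Chromosome 4 held 2.13% (interval 0.912 to 4.88), against 0.699% of all IDR peaks (interval 0.431 to 1.13), 0.804% of those regions and 0.523% of the gap length.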

How the data were processed

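The samples are 2 ChIP-seq libraries of p53-eGFP embryos, replicates 2 and 3. The authors deposited a list of peaks and background regions per replicate, a pooled list and an IDR-selected list, here in dm6. In them the signal value of a peak, its −log10 q-value and its summit offset are the authors' own, per the file columns. The aligner, peak caller, IDR threshold and signal scaling were each not given in the sources used here. How many reads lie behind a peak was not given either, so the depth is unknown. Chromatin was sonicated to 200 to 800 bp, per the labels.

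Coordinates are dm6, 1-based, and every peak ended within the chromosomes of the Release 6 reference, whose gene models are from Ensembl release 115. Summits were classed by the stated rule, words were searched within 100 bp of the summit on both strands, and regions were matched to each replicate by an overlap of at least 1 bp. Intervals are 95% Wilson intervals (SciPy 1.17.1, Python 3.11.15) and cover counting error only. With 1 group there is no comparison of conditions, and no test was run. The classing, the overlaps and the word search were tested on simulated data. The members, the gene lists and the alternatives were chosen with earlier results of these data known. Genes named are the neighbours of the 20 strongest and 5 farthest peaks and list members beside a peak. Genes of the shared gaps, chains, non-coding starts, transposable elements and replicate differences were named after their values were seen. The dm3 lists were not used.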

Additional observations from a re-analysis of the deposited data

How the results depend on the processing

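Of 113 values under alternatives, 96 stayed close to the reported ones (counts and medians within 1.5-fold, shares within their 95% interval) and 17 moved. Taking the 2290 strongest regions of either replicate alone moved none. The stronger part of the IDR list, above its median signal value, held 113 intergenic peaks with a median signal value of 165, of which 99.1% overlapped the strongest regions of replicate 2 and 100% those of replicate 3, and none was in a transposable element (0%). Intergenic peaks were 8.25% of the IDR list with a TSS distance of 1000 bp, 13.1% with 250 bp and 12.3% when only protein-coding gene bodies counted, and the share beyond 5 kb of a TSS was 45.0% with 1000 bp and 28.2% with 250 bp. Counting transposable elements as gene bodies leaves 0% inside one by construction. Sites with at most 2 mismatches were in 3.40%. An overlap of 50% of both regions gave 73.6% for replicate 2. With pooled regions at a q of 0.01 or less in place of the IDR list, 66.1% overlapped the strongest regions of replicate 2 and 64.6% those of replicate 3. GAGAG was in 14.5% of windows reaching 50 bp and 41.7% of those reaching 150 bp from the summit. These last settings, and RefSeq gene models, which moved no value, were chosen after seeing the data. No paired analysis was possible because both replicates belong to 1 group. The unknown read depth limits what the weaker peaks can show.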
